A study of Mus musculus with 6 samples.

Results

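The 5′ fragments of tRNA-Gly-GCC and tRNA-Lys-TTT, the glycine transfer RNA with anticodon GCC and the lysine transfer RNA with anticodon TTT, were followed through 6 small RNA libraries of cultured mouse spermatogonia stem cells. Members were all reads of 18 to 40 nt that match the mature tRNA exactly and start at its nucleotide 1 or 2. These 2 tRNAs were chosen by their lower share of reads with NaIO4 in wild type and in mhen1-/- cells, so the NaIO4 values below describe that choice and support nothing. A total of 118 distinct member sequences were found, 81 of tRNA-Gly-GCC (of 92 possible) and 37 of tRNA-Lys-TTT (of 46 possible), among 11473543 distinct sequences of the same lengths.

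The cells carried an actin-EGFP transgene, came from a 15-day-old male, the F1 of a C57BL/6 by DBA2 cross (strain label C57BL/6), and were grown on mouse embryonic fibroblast feeders, so each culture may hold feeder RNA. The 6 groups, each with 1 library, were wild type cells untreated, wild type cells with NaIO4, mhen1-/- cells (Hen1 knockout) untreated, mhen1-/- cells with NaIO4, mili-/- cells (Mili knockout) untreated, and RNA precipitated from wild type cells with an antibody to MILI. The knockouts were made with Cas9 and guide RNAs, and single colonies were picked, so each knockout may stand for 1 clone. Messenger RNA was not measured, so the knockouts were not checked by the targeted gene here. For NaIO4 treatment, total RNA was mixed with a 200 mM stock of NaIO4 and kept cold in the dark. Libraries held 2743914 reads of 18 to 40 nt (mhen1-/- with NaIO4) to 25792602 (immunoprecipitate). No group had a replicate, so no difference could be set against the spread between replicates. Intervals are 95% intervals that cover counting error only, and reads amplified by PCR without molecular identifiers do not count separate molecules.

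Transfer RNAs carry amino acids to the ribosome, and nucleases can cut them in the anticodon loop into 5′ and 3′ pieces, which are abundant small RNAs in many cells, germ cells among them. NaIO4 oxidises the free diol at the 3′ end of an RNA, and such an end can no longer be joined to the 3′ adapter. A 2′-O-methyl group protects the end. HEN1 is the methyltransferase that places this group on piRNAs, the small RNAs bound by PIWI proteins, and MILI is a PIWI protein of the male germ line. The series asked which small RNAs carry such a protected 3′ end.

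The mature tRNAs were assembled from the reads, since no reference sequence of them was used here, and are printed with the anticodon in capitals and with T as read. They are shown because the 5′ fragment counts below rest on their first nucleotides and the 3′ fragment counts on their last.
tRNA-Gly-GCC, G form: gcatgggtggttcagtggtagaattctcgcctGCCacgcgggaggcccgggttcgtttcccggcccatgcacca
tRNA-Gly-GCC, T form: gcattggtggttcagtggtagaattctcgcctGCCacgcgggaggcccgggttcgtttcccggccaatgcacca
tRNA-Lys-TTT: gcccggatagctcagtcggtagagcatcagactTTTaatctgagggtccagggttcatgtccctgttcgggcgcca
Counted from 1 at the 5′ end, the T form and the G form of tRNA-Gly-GCC differ at T5G and at A66C, which face each other in the acceptor stem. The anticodon begins at nucleotide 33 in tRNA-Gly-GCC and at nucleotide 34 in tRNA-Lys-TTT. Without the added CCA end the assembled tRNAs are 71 and 73 nt long, the lengths of the 14 tRNA-Gly-GCC genes and the 2 tRNA-Lys-TTT genes in RefSeq (GRCm38.p6). Only assembled tRNAs with such a length were used, so this match was set by the selection. The lysine genes lie at chr13:21971788-21971860 and chr13:21907940-21908012, outside annotated genes. Of the glycine genes, spread over chromosomes 1, 2, 3, 4, 8, 11 and 13, 5 lie within the span of another gene (Clec18a, 4930555B11Rik, Trim2 and, for 2 of them, Vac14) and 9 lie outside. Which copy gave a read cannot be told here, as no genome sequence was used. No member sequence was shared with another assembled tRNA, and none of the 6 shortest fragments (18 nt) occurred in a GENCODE M21 transcript on either strand.

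The most abundant single fragments in untreated wild type cells end in or before the anticodon loop, and the 4 leading ones of each tRNA are shown because they carry most of its reads.
Gly-GCC G form 32 nt: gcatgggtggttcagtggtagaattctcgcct
Gly-GCC T form 32 nt: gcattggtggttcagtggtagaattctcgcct
Gly-GCC T form 31 nt: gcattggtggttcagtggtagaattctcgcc
Gly-GCC G form 31 nt: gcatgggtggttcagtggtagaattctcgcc
Lys-TTT 31 nt: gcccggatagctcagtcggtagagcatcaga
Lys-TTT 33 nt: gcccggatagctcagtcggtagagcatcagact
Lys-TTT 28 nt: gcccggatagctcagtcggtagagcatc
Lys-TTT 26 nt: gcccggatagctcagtcggtagagca
The 32-nt glycine fragments and the 33-nt lysine fragment stop at the base before the anticodon. In every library the most abundant single fragment of each tRNA was among these 8.

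Beside these members, microRNAs, whose 3′ ends are unmodified in mammals, give the scale of the treatment. Exact mature microRNAs held 10.4% of reads in untreated wild type and 0.519% with NaIO4, 20.1-fold lower (19.9 to 20.3). In mhen1-/- cells they held 3.90% and 1.02%, 3.81-fold lower (3.77 to 3.86). Shares of a library add up to a whole, and 1 sequence held 23.1% of the mhen1-/- library with NaIO4 against 1.03% to 8.82% in the others. The fibroblast microRNAs Mir199a and Mir214 (4 mature arms) held 0.0404%, 0.00228%, 0.0411%, 0.0134%, 0.133% and 0.00301% of reads in the order of groups given above, and all 4 arms had reads in the 3 untreated libraries of total RNA. The stem cell microRNAs Mir290 to Mir295 (17 mature arms, 7 to 12 of them with reads) held 0.000403% to 0.0358%.

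Fragments of tRNA-Gly-GCC were the more abundant of the pair in every library. They held 1.03% of reads in untreated wild type (1.02 to 1.03, 79742 reads), 0.318% in wild type with NaIO4, 2.65% in untreated mhen1-/- cells, 0.855% in mhen1-/- cells with NaIO4, 2.22% in mili-/- cells and 0.129% in the immunoprecipitate. The 3 untreated total RNA libraries were thus the highest and the immunoprecipitate the lowest. In RNA from a whole culture, fewer cells with a fragment and less of it per cell cannot be told apart. Fragments of tRNA-Lys-TTT held 0.337% (0.333 to 0.341, 26170 reads), 0.0252%, 0.320%, 0.0431%, 0.556% and 0.0207% in the same order. Here too the 3 untreated libraries were highest, while the immunoprecipitate and wild type with NaIO4 were lowest. Reads of tRNA-Gly-GCC per read of tRNA-Lys-TTT were 3.05 in untreated wild type, 12.6 with NaIO4, 8.27 and 19.8 in mhen1-/- cells without and with NaIO4, 3.99 in mili-/- cells and 6.22 in the immunoprecipitate.

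**Figure D1:**
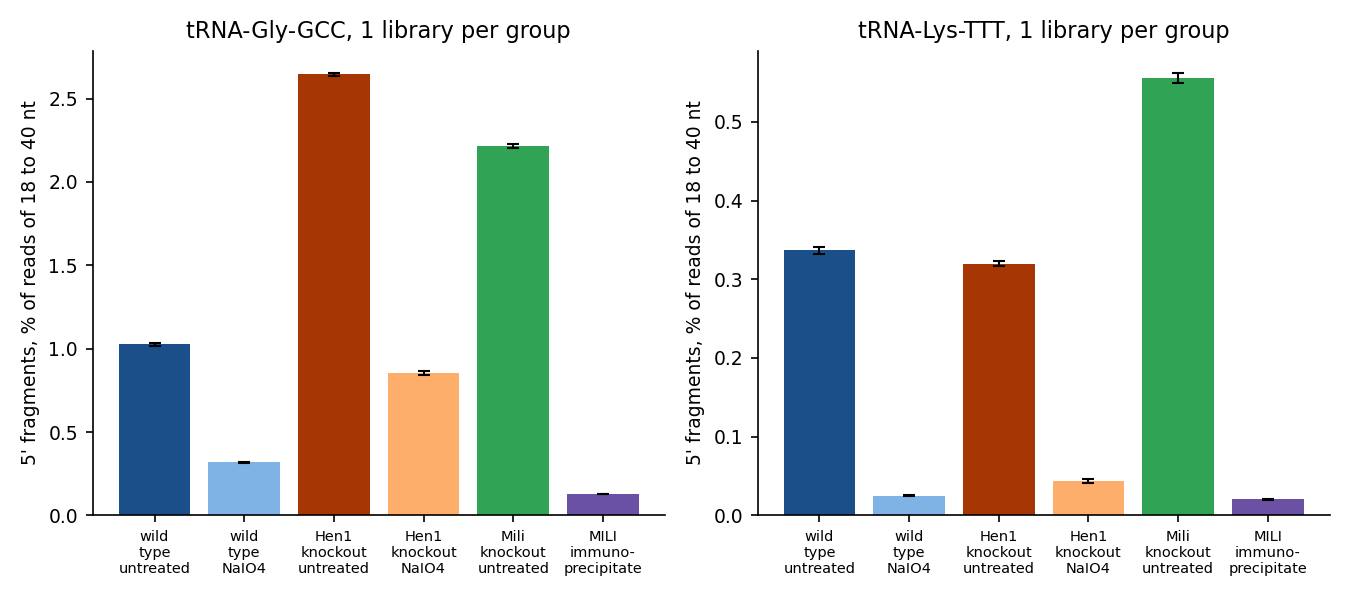
Share of reads of 18 to 40 nt held by the 5′ fragments of each tRNA in each library (bars, 1 library per group), with exact binomial 95% intervals for counting error. Untreated mhen1-/- cells have the tallest bar for tRNA-Gly-GCC (2.65%) and mili-/- cells that for tRNA-Lys-TTT (0.556%).

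Whether the fragments resist NaIO4, as RNAs with a protected 3′ end do, was the question of the treated libraries. In wild type cells, the share of tRNA-Gly-GCC fragments was 3.23-fold lower with NaIO4 (3.19 to 3.27) and that of tRNA-Lys-TTT fragments 13.4-fold lower (12.9 to 13.9). In mhen1-/- cells they were 3.09-fold (3.05 to 3.13) and 7.42-fold lower (7.005 to 7.86). The ratio in mhen1-/- cells over that in wild type was 1.04 for tRNA-Gly-GCC (1.02 to 1.06) and 1.80 for tRNA-Lys-TTT (1.68 to 1.93). These directions hold for shares of all reads: per microRNA read the NaIO4 ratio of tRNA-Gly-GCC was 6.23 in wild type and 1.23 in mhen1-/- cells, and that of tRNA-Lys-TTT 1.501 and 0.514. With the 10 most abundant sequences of each library out of the total, the mhen1-/- ratios were 0.492 and 0.205 instead of 0.323 and 0.135, and per read of all tRNA 5′ fragments they were 1.06 and 0.442.

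Single sequences were read against all 31093 sequences that had 10 reads or more in each of the untreated libraries of wild type and mhen1-/- cells, among them 47 of tRNA-Gly-GCC and 23 of tRNA-Lys-TTT. In wild type, 45.6% of all were at least 2-fold lower with NaIO4 and 13.2% at least 2-fold higher, beside 31 lower and 1 higher for tRNA-Gly-GCC and 21 lower and 0 higher for tRNA-Lys-TTT. In mhen1-/- cells, 71.7% of all were lower and 10.4% higher, beside 32 lower and 5 higher for tRNA-Gly-GCC and 16 lower and 1 higher for tRNA-Lys-TTT. The choice of the 2 tRNAs used these contrasts, so the member counts support nothing. In mhen1-/- cells neither tRNA had a larger fraction of its sequences lower than all sequences did, so the counts do not set the pair apart there.

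Length divided the glycine fragments. In wild type the 32-nt fragments, which stop before the anticodon, were 7.93-fold lower with NaIO4 and the 33-nt ones 21.8-fold lower, against 2.33-fold for 31 nt and 2.35-fold for 30 nt. Shorter fragments of 26, 27 and 28 nt had higher shares with NaIO4, with ratios of 1.16 (1.06 to 1.28), 1.41 (1.30 to 1.52) and 1.32 (1.23 to 1.42). The same 3 lengths had ratios of 0.567 (0.499 to 0.645), 0.498 (0.437 to 0.567) and 0.374 (0.316 to 0.443) in mhen1-/- cells. The opposite order held for 18 nt, with ratios of 0.515 in wild type and 2.25 in mhen1-/- cells, and for 29 nt, with 0.673 and 2.71. Lengths of 26, 27 and 28 nt had 691, 943 and 1094 reads in untreated wild type, or 0.867%, 1.18% and 1.37% of its glycine fragments. With NaIO4 they had 1095, 1814 and 1970 reads, or 3.25%, 5.38% and 5.84%.

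The lysine fragments were lower with NaIO4 at each of their main lengths. At 31 nt the share was 19.9-fold lower in wild type and 5.63-fold lower in mhen1-/- cells, at 33 nt 21.97-fold and 13.8-fold, and at 28 nt 10.6-fold and 7.57-fold. The 26-nt fragment had 1177 reads in untreated wild type and 44 with NaIO4, 36.5-fold lower (27.02 to 49.3), and was 4.43-fold lower in mhen1-/- cells. Unlike tRNA-Gly-GCC, tRNA-Lys-TTT had no length from 26 to 28 nt with a ratio above 1 in wild type. In mhen1-/- cells 25-nt fragments had a ratio of 1.47 (1.12 to 1.92, from 209 and 69 reads) against 0.366 in wild type.

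**Figure D2:**
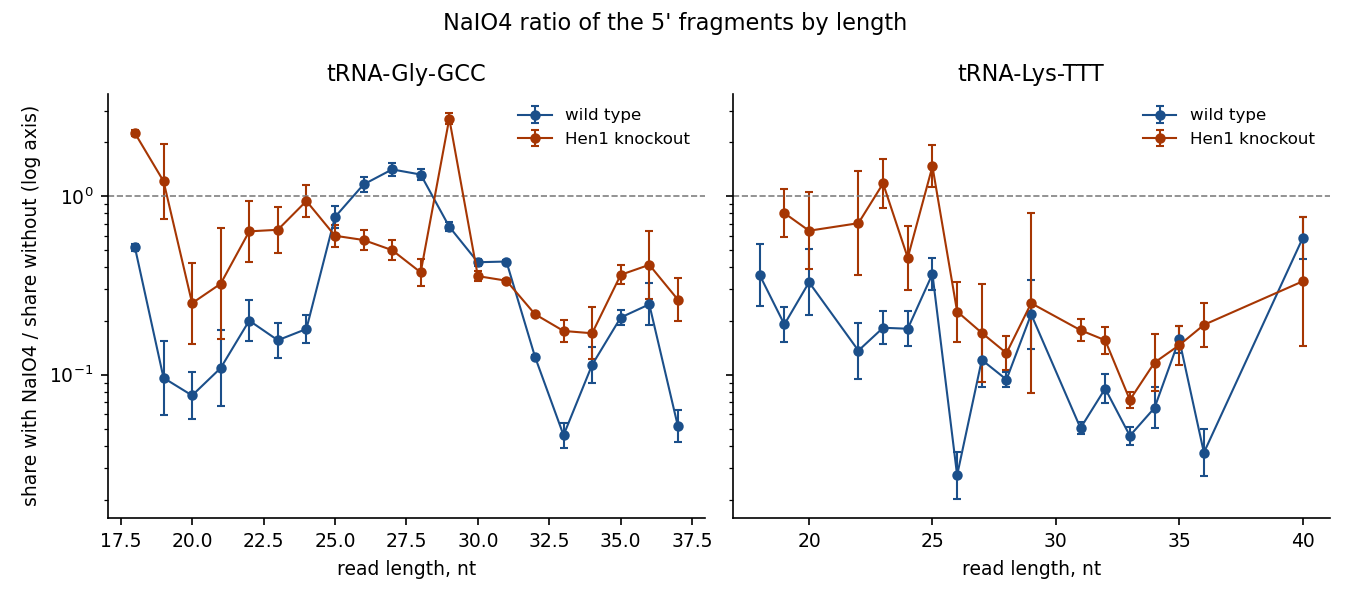
Share with NaIO4 divided by share without, on a log axis, against read length for each tRNA in wild type and in mhen1-/- cells, with 95% counting intervals, for lengths with at least 50 reads in the untreated library. For tRNA-Gly-GCC the wild type points lie above 1 at 26 to 28 nt (1.16 to 1.41), where the mhen1-/- points lie below 1.

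Treated libraries also held the fragments with other ends. In untreated wild type 42.8% of tRNA-Gly-GCC fragments were 32 nt long and 25.5% were 31 nt long, and with NaIO4 the order was turned, with 17.4% at 32 nt and 35.4% at 31 nt. In mhen1-/- cells 32 nt led without (61.3%) and with NaIO4 (41.3%), followed by 31 nt at 26.3% and 27.4%. Fragments of 18 nt, the shortest length counted, made up 11.8% of glycine fragments in wild type with NaIO4 and 15.5% in mhen1-/- cells with NaIO4. For tRNA-Lys-TTT, 31 nt led in wild type without (41.1%) and with NaIO4 (27.6%), whereas 33 nt led in mhen1-/- cells (54.4% and 29.2%).

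**Figure D3:**
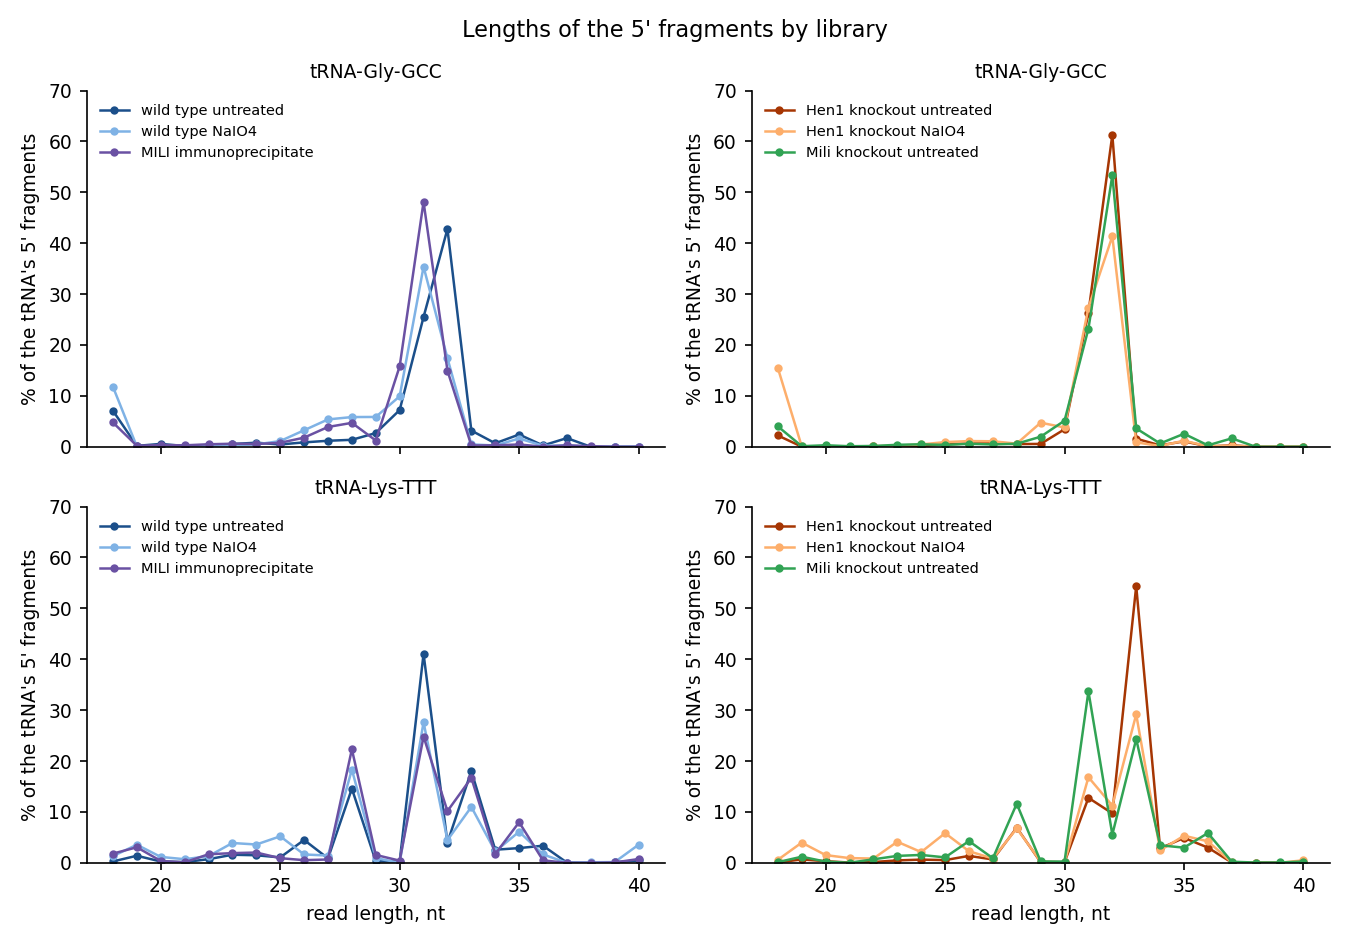
Percent of each tRNA's 5′ fragments at each read length from 18 to 40 nt, with wild type and the immunoprecipitate on the left and both knockouts on the right. For tRNA-Gly-GCC the tallest point is at 32 nt in untreated wild type (42.8%) and at 31 nt in the immunoprecipitate (48.1%), and for tRNA-Lys-TTT it is at 33 nt in mhen1-/- cells (54.4%).

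The untreated wild type and mhen1-/- libraries are the denominators of the NaIO4 ratios that chose the pair, so their comparison is a description too. The mili-/- and immunoprecipitate libraries were not used in the choice, but that wild type library is the denominator of their ratios as well. The tRNA-Gly-GCC share was 2.58-fold that of wild type in mhen1-/- cells (2.56 to 2.60), while the tRNA-Lys-TTT share was 0.950 of it (0.936 to 0.965). For other tRNAs this ratio was 4.37 (tRNA-Gln-CTG), 1.61 (tRNA-Glu-CTC), 1.40 (tRNA-Asp-GTC), 1.38 (tRNA-Val-CAC) and 1.13 (tRNA-Glu-TTC). It was 1.04 for tRNA-Lys-CTT and 0.638 for tRNA-Gly-CCC. Of all single sequences 34.4% were at least 2-fold lower and 11.1% at least 2-fold higher. Among the 47 sequences of tRNA-Gly-GCC 11 were lower and 7 higher, and among the 23 of tRNA-Lys-TTT 15 were lower and 2 higher. The longer glycine fragments, which hold most of its reads, stood at 3.69-fold (32 nt) and 2.66-fold (31 nt), while fragments of 18 to 27 nt together were at 0.962. For tRNA-Lys-TTT the ratio was 1.03 when only 28 to 36 nt were counted. Per microRNA read the ratios were 6.90 and 2.54, beside a microRNA share 2.68-fold lower, and per read of all tRNA 5′ fragments they were 1.64 and 0.604. The summed fibroblast microRNAs held 0.0411% of reads in mhen1-/- cells against 0.0404% in wild type (1.05% against 0.387% of microRNA reads), and their part in the result was not tested.

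Within tRNA-Lys-TTT, mhen1-/- cells differed by length. The 33-nt fragment was 2.87-fold that of wild type (2.78 to 2.96) and 32 nt 2.32-fold. The 31-nt fragment was 3.38-fold lower (3.27 to 3.50), 28 nt 2.22-fold lower and 26 nt 3.48-fold lower. The untreated counts were 4716 and 21201 reads at 33 nt and 10748 and 4979 reads at 31 nt, in wild type and mhen1-/-. Ends within the anticodon loop accordingly made up 30.9% of lysine fragments in untreated wild type and 74.9% in untreated mhen1-/- cells. The share in mili-/- cells, at 42.4%, lay between them. For tRNA-Gly-GCC the same share was 76.7% in wild type, 90.9% in mhen1-/- cells and 85.3% in mili-/- cells, so both knockouts had more of their ends in the loop than the single wild type library.

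In mili-/- cells both fragments had higher shares than in wild type. The ratio was 2.16 for tRNA-Gly-GCC (2.14 to 2.18) and 1.65 for tRNA-Lys-TTT (1.62 to 1.68). Of all single sequences 53.1% were at least 2-fold lower and 13.1% at least 2-fold higher. Of the glycine sequences 3 were lower and 16 higher, and of the lysine sequences 1 was lower and 6 were higher. Glycine fragments of 32 nt were 2.69-fold those of wild type and those of 31 nt 1.97-fold, while 27 nt had a ratio of 0.832 (0.747 to 0.925) and 28 nt of 0.949 (0.863 to 1.04). The lysine 33-nt fragment was 2.23-fold and the 31-nt fragment 1.35-fold that of wild type. The summed fibroblast microRNAs were also higher in mili-/- cells, at 0.133% of reads against 0.0404% (0.719% against 0.387% of microRNA reads), and their part in the result was not tested. Per microRNA read the ratios were 1.22 and 0.931.

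The immunoprecipitate addressed which small RNAs are bound by MILI. Fragments of tRNA-Gly-GCC had a share there 7.97-fold lower than in wild type total RNA (7.87 to 8.07), and those of tRNA-Lys-TTT one 16.3-fold lower (15.8 to 16.7). Of all single sequences 55.5% were at least 2-fold lower and 16.3% at least 2-fold higher. Of the 47 glycine sequences 42 were lower and 1 was higher, and all 23 lysine sequences were lower. MicroRNAs were 36.9-fold lower (36.6 to 37.2), so per microRNA read the ratios were 4.63 and 2.27. No precipitate with a control antibody was analysed here, and background RNA in the precipitate was not tested.

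Glycine fragments in the immunoprecipitate differed by length and form. The 32-nt fragments were 22.8-fold lower than in wild type and the 33-nt ones 96.9-fold lower (87 reads), but those of 31 nt 4.22-fold, 30 nt 3.64-fold and 28 nt 2.32-fold. The T form made up 81.1% of glycine fragments there (80.7 to 81.5) against 51.9% in untreated wild type. In the other libraries it made up 58.8% (wild type with NaIO4), 38.2% and 47.7% (mhen1-/- without and with NaIO4) and 48.4% (mili-/-). The immunoprecipitate thus had the highest and untreated mhen1-/- cells the lowest share of this form. Against wild type the G form was 20.3-fold lower in the immunoprecipitate and the T form 5.10-fold lower. The forms also differed in mhen1-/- cells, at 3.31-fold (G form) and 1.90-fold (T form) the wild type share.

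Single fragments show the same split. The 32-nt G form fragment had 18556 reads in untreated wild type, 3031 with NaIO4, 133808 and 5862 in mhen1-/- cells without and with NaIO4, 34610 in mili-/- cells and 917 in the immunoprecipitate, where its share was 67.2-fold lower. The 31-nt T form fragment had 10800, 6610, 34612, 2970, 13072 and 13183 reads in that order, and its share in the immunoprecipitate was 2.72-fold lower. It was the leading glycine fragment both in wild type cells with NaIO4 and in the precipitated RNA. The 31-nt lysine fragment had 10748, 736, 4979, 199, 9741 and 1316 reads, and its share in the immunoprecipitate was 27.1-fold lower. The 33-nt lysine fragment had 4716, 289, 21197, 345, 7031 and 887 reads and led in both mhen1-/- libraries.

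Other tRNAs of the same libraries show where the pair differs. The isoacceptors, tRNAs for the same amino acid, have forms with nearly the same 5′ end. Over the first 40 nucleotides the nearest form of tRNA-Gly-CCC differs from the T form at G9A, G15A and G33C. Its other counted form differs from the T form at 17 positions. The nearest form of tRNA-Lys-CTT differs from tRNA-Lys-TTT at A7C, C28G and T34C. With NaIO4, tRNA-Gly-CCC had ratios of 0.149 in wild type and 0.283 in mhen1-/- cells, and tRNA-Lys-CTT 0.282 and 0.154. The remaining comparison tRNAs were closer to 1 in wild type: tRNA-Glu-CTC had ratios of 0.647 and 0.269, tRNA-Glu-TTC 0.842 and 0.398, tRNA-Val-CAC 1.16 and 0.327, tRNA-Asp-GTC 1.53 and 0.289, and tRNA-Gln-CTG 1.21 and 0.238. The mhen1-/- ratio was above the wild type ratio for tRNA-Gly-GCC, tRNA-Lys-TTT and tRNA-Gly-CCC (1.90) and below it for the other 6, for which it was 0.190 to 0.545 of the wild type ratio. The pair was chosen on these NaIO4 ratios, so its place among them is a description. tRNA-Gly-CCC and tRNA-Lys-CTT, which are not members, had lower NaIO4 ratios than tRNA-Gly-GCC in both genotypes.

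The lysine isoacceptors stood apart from each other in the immunoprecipitate. The share of tRNA-Lys-CTT there was 1.08 times that in wild type total RNA (1.07 to 1.10), against 16.3-fold lower for tRNA-Lys-TTT. That of tRNA-Gly-CCC was 11.99-fold lower, beside 7.97-fold for tRNA-Gly-GCC. tRNA-Asp-GTC was 4.21-fold higher, and tRNA-Glu-CTC 5.77-fold, tRNA-Glu-TTC 3.19-fold and tRNA-Val-CAC 1.22-fold lower, with tRNA-Gln-CTG at 1.09. In mili-/- cells tRNA-Glu-CTC was at 1.90 times wild type, above tRNA-Lys-TTT at 1.65. tRNA-Gly-CCC was at 1.34, tRNA-Lys-CTT at 1.30, tRNA-Glu-TTC at 1.26 and tRNA-Val-CAC at 1.07 times wild type. By contrast, tRNA-Asp-GTC was 1.88-fold and tRNA-Gln-CTG 2.48-fold lower.

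**Figure D4:**
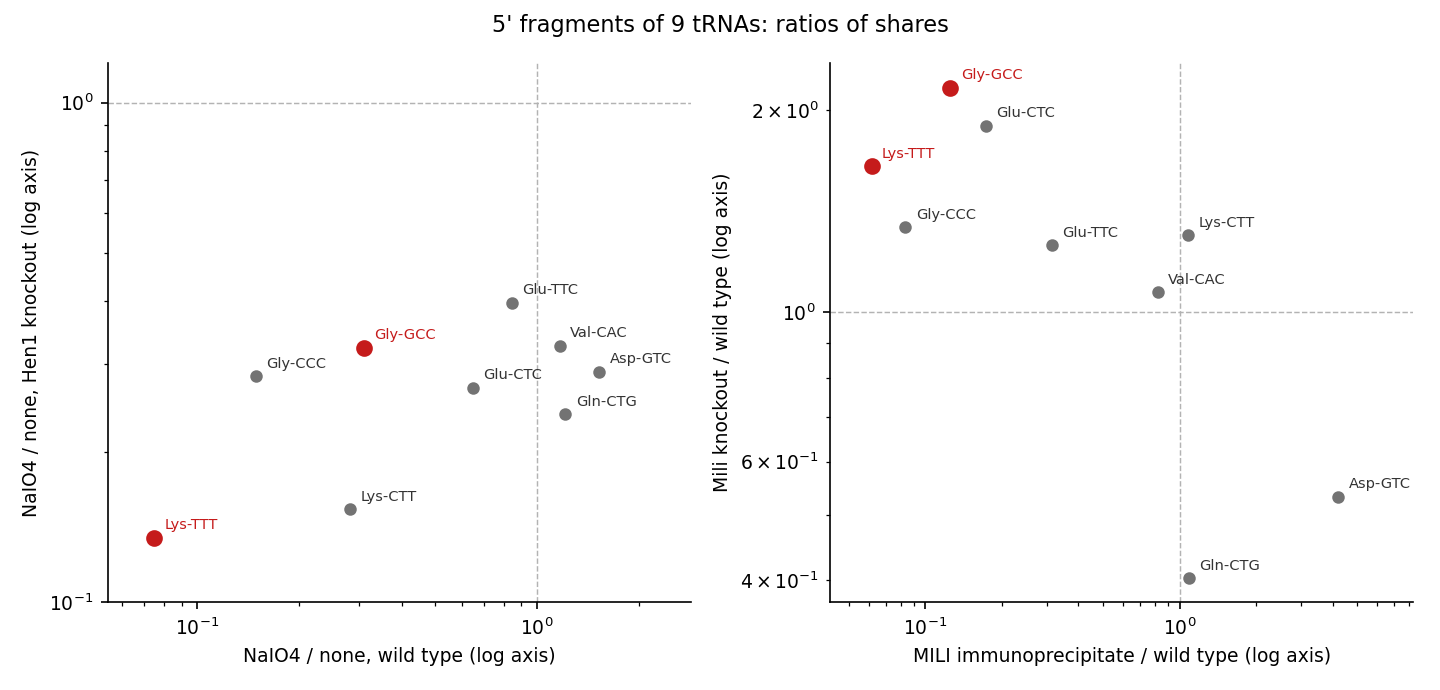
Ratios of shares for the 5′ fragments of 9 tRNAs on log axes, with NaIO4 ratios in wild type and mhen1-/- on the left, and the immunoprecipitate and mili-/- against wild type on the right. tRNA-Gly-GCC and tRNA-Lys-TTT (red) lie low on the wild type axis at 0.310 and 0.0747, and in the right panel to the upper left, opposite tRNA-Asp-GTC. On the wild type axis tRNA-Gly-CCC (0.149) and tRNA-Lys-CTT (0.282) lie low too. The right panel has tRNA-Glu-CTC (0.173 and 1.90), tRNA-Gly-CCC (0.0834 and 1.34) and tRNA-Glu-TTC (0.314 and 1.26) in the same direction as the pair.

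The 3′ fragments counted for the same tRNAs went the other way with NaIO4. Only reads of 18 to 40 nt that match the assembled tRNA exactly and end at its CCA were counted. For tRNA-Gly-GCC they held 1.35%, 1.87%, 0.360%, 2.31%, 1.29% and 1.83% of reads in the order of groups above. With NaIO4 their share in wild type was 1.39-fold higher (1.38 to 1.40) and that in mhen1-/- cells 6.400-fold (6.32 to 6.48), where the 5′ fragments were lower in both. For tRNA-Lys-TTT, 3′ fragments had 333, 974, 259, 452, 318 and 536 reads, and were 2.14-fold (1.89 to 2.43) and 7.75-fold (6.65 to 9.03) higher. Without NaIO4 the glycine 3′ fragments were 3.74-fold lower in mhen1-/- cells than in wild type, opposite to the 5′ fragments, and 1.36-fold higher in the immunoprecipitate. The lysine 3′ fragments were 2.02-fold lower in mhen1-/- cells (a ratio of 0.496, 0.422 to 0.584) and, unlike those of glycine, lower in the immunoprecipitate, by 2.06-fold (a ratio of 0.485, 0.423 to 0.556). In mili-/- cells the 3′ ratios were 0.954 (0.945 to 0.964) for glycine and 1.43 (1.22 to 1.66) for lysine. Short 3′ fragments can be shared with other tRNAs, since the assembled tRNA-Gly-CCC ends in the same bases, and a modified base that is misread would be printed as read. Reads with another base at such a position were not counted, so these shares and ratios may cover only a part of the 3′ fragments.

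Starts at nucleotide 2 and 3′ bases that leave the tRNA sequence touched few reads in every library. Neither was used in the choice of tRNAs. Reads that start at nucleotide 2 made up 0.145% to 2.31% of glycine fragments and 0.157% to 1.99% of lysine fragments, highest in the immunoprecipitate for glycine and in wild type with NaIO4 for lysine. Reads with 1 to 3 further 3′ bases that leave the tRNA sequence made up 2.79% (2.68 to 2.90) of glycine reads in untreated wild type, 2.01% with NaIO4, 2.999% and 1.66% in mhen1-/- cells without and with NaIO4, 2.95% in mili-/- cells and 2.84% in the immunoprecipitate. Both treated libraries were thus the lowest. For lysine the values were 2.03%, 1.73%, 2.52%, 2.23%, 3.86% and 2.04%, with the intervals of treated and untreated libraries overlapping in both genotypes. Glycine reads whose further bases were all T made up 1.23% in wild type with NaIO4 against 0.919% without. In mhen1-/- cells they made up 0.319% with NaIO4 against 0.615% without. Added and misread bases were not told apart.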

How the data were processed

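Small RNAs of 6 samples, 1 per group, were sequenced. The deposited files give read counts per distinct sequence, whole numbers with no header. Bowtie, with no version, and the build mm10 appear per the submitters' processing notes, and trimming is not given in the sources used here. The labels mention spike-ins for 5 libraries, which are not used here.

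Members and lists were chosen with earlier results of these data known. Mature tRNAs could not be matched to a reference as planned and were assembled from the pooled reads. Windows of 20 nt with at least 10 reads were chained from 5′ ends with at least 2000 reads to a CCA end, and chains of 74 to 76 nt that folded as a tRNA were kept and named by anticodon. This gave 58 chains for 19 anticodons, and the 47 with the length of a RefSeq gene of their anticodon, for 15 anticodons, were used; tRNA-Gly-TCC and tRNA-Val-AAC were not among them and were not analysed here. The assembly and the ratios were tested on simulated data. Of 10 RefSeq tRNA genes inside annotated exons, 3 folded with their anticodon. The 5′ end of n-TGccc7 was in an assembled tRNA, while those of n-TPtgg2 and n-TRtcg5 were in none. The assembly thus does not hold every tRNA, and sharing with tRNAs missing from it was tested only for these reference genes. A share is the reads of a fragment over all reads of 18 to 40 nt, with an exact Clopper-Pearson interval. A ratio of shares has a log-scale interval from its read counts. With 1 library per group no p-value was computed. Single fragments were named by reads (the leading 4 in untreated wild type and the leading 1 elsewhere), other tRNAs from a list. MicroRNA reads are exact matches to RefSeq mature sequences (GRCm38.p6), and gene positions are from RefSeq and GENCODE M21. Python 3.11.15, numpy 2.4.6, scipy 1.17.1 and matplotlib 3.10.9 were used. Alternatives changed the total, the starts, the match, the lengths and the limits on reads and fold.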

Additional observations from a re-analysis of the deposited data

Results flagged for a closer look

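At 7 single lengths the NaIO4 ratio of the fragments lay wholly above 1 in one genotype and wholly below 1 in the other, by intervals for counting error. The difference between genotypes was not tested, since each group has 1 library. For tRNA-Gly-GCC the ratio in mhen1-/- cells over that in wild type was 4.36 at 18 nt, 0.489 at 26 nt, 0.353 at 27 nt, 0.283 at 28 nt and 4.03 at 29 nt. For tRNA-Lys-TTT it was 5.90 at 21 nt and 4.00 at 25 nt. At 21 nt tRNA-Lys-TTT had 37 and 19 reads in wild type without and with NaIO4 and 22 and 11 in mhen1-/- cells.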

How the results depend on the processing

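No paired analysis was possible because each group has 1 library and no comparison comes from a test. The depth limits counts at rare lengths, and 1 library per group limits every comparison. In each list below the values are given for tRNA-Gly-GCC and then tRNA-Lys-TTT, and "difference" means the mhen1-/- NaIO4 ratio over that of wild type. Comparisons left unnamed come in the order NaIO4 in wild type, NaIO4 in mhen1-/- cells, difference, then mhen1-/- cells, mili-/- cells and immunoprecipitate against wild type. The cause of these shifts was not tested.

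Per microRNA read most directions were turned: the NaIO4 ratios of wild type were 6.23 and 1.501, those of mhen1-/- cells 1.23 and 0.514, the difference 0.198 and 0.342, mhen1-/- against wild type 6.90 and 2.54, mili-/- 1.22 and 0.931, and immunoprecipitate 4.63 and 2.27. Per read of all tRNA 5′ fragments the NaIO4 ratios in wild type were 0.516 and 0.124, those of mhen1-/- cells 1.06 and 0.442, 2.06 and 3.55 for the difference, 1.64 and 0.604 for mhen1-/- cells, 1.45 and 1.11 for mili-/- cells, and 0.194 and 0.0950 for the immunoprecipitate. With the 10 most abundant sequences of each library out of the total they were 0.299 (tRNA-Gly-GCC only) in wild type, 0.492 and 0.205 in mhen1-/- cells, 1.65 and 2.85, 2.47 and 0.909, 2.58 and 1.97, and 0.109 and 0.0533. With each distinct sequence counted once, which weighs rare reads like common ones, they were 0.452 and 0.575, 4.54 and 4.19, 10.04 and 7.29, 0.411 and 0.500, 3.85 and 4.47, and 0.140 and 0.168. These divide at most 92 and 46 possible fragments by 278160 to 7408664 distinct sequences per library, so the library totals weigh heavily in them.

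For fragments of 18 to 27 nt they were 0.579 and 0.145, 1.40 and 0.628, 2.41 and 4.34, 0.962 and 0.383, 1.24 and 1.53, and 0.142 and 0.0652. For 28 to 36 nt the NaIO4 ratios were 0.277 and 0.0621, 0.272 and 0.109, the tRNA-Gly-GCC difference 0.983, mhen1-/- cells 2.85 and 1.03, and mili-/- cells 2.29 for tRNA-Gly-GCC. As shares of reads of 18 to 35 nt, tRNA-Gly-GCC had 0.301 in wild type with NaIO4, a difference of 1.09, and 2.53, 2.20 and 0.121 in the other 3 comparisons, and tRNA-Lys-TTT 0.932, 1.68 and 0.0592 in these.

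Fewer shifts came from the matching. Only starts at nucleotide 1 gave 0.123 and 1 mismatch 0.129 for tRNA-Gly-GCC in the immunoprecipitate, starts at nucleotides 1 to 4 gave it 2.56 in mhen1-/- cells, and further 3′ bases gave it 0.319 with NaIO4 in mhen1-/- cells and gave tRNA-Lys-TTT 1.68 in mili-/- cells. The other 64 ratios kept their direction within the counting interval. Among them are 12 from reads of no other tRNA, a filter that removed nothing because no member sequence was shared. With a matched 5′ part of 24 nt or more, glycine reads with further 3′ bases were 3.03% in untreated wild type and 2.29% with NaIO4. They were 3.07% and 1.93% in mhen1-/- cells without and with NaIO4, 3.09% in mili-/- cells and 2.94% in the immunoprecipitate.

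With a 4-fold in place of a 2-fold limit, 37.7% of all sequences were lower and 1.15% higher with NaIO4 in wild type, where the tRNA-Gly-GCC sequences were 20 lower (instead of 31) and 0 higher (instead of 1), and 17 of tRNA-Lys-TTT were lower (instead of 21). For NaIO4 in mhen1-/- cells, 53.2% of all were lower and 5.5% higher, beside 11 lower (instead of 32) and 0 higher (instead of 5) of tRNA-Gly-GCC and 13 lower (instead of 16) and 0 higher (instead of 1) of tRNA-Lys-TTT. In untreated mhen1-/- cells, 7.94% of all were lower and 3.25% higher, beside 1 lower (instead of 11) and 2 higher (instead of 7) of tRNA-Gly-GCC and 1 lower (instead of 15) and 0 higher (instead of 2) of tRNA-Lys-TTT. In mili-/- cells, 49.5% of all were lower and 1.3% higher, beside 0 lower (instead of 3) and 1 higher (instead of 16) of tRNA-Gly-GCC and 1 lower (as before) and 1 higher (instead of 6) of tRNA-Lys-TTT. In the immunoprecipitate, 48.3% of all were lower and 5.15% higher, beside 31 lower (instead of 42) and 0 higher (instead of 1) of tRNA-Gly-GCC and 20 lower (instead of 23) of tRNA-Lys-TTT. With 50 reads and the 2-fold limit, 57.2% of all were lower and 8.39% higher with NaIO4 in wild type. Of 37 tRNA-Gly-GCC sequences 25 were lower and 0 higher, and of 17 of tRNA-Lys-TTT 16 and 0. For NaIO4 in mhen1-/- cells, 72.6% and 13.9% of all stood beside 23 and 5 and beside 12 and 0. In untreated mhen1-/- cells, 39.1% and 8.28% of all stood beside 8 and 6 and beside 11 and 2.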

Other observations

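In mhen1-/- cells with NaIO4, 18-nt reads made up 21.5% of the T form of the glycine fragments and 10.0% of the G form, against 3.63% and 1.36% without NaIO4. Reads of 29 nt made up 4.28% and 5.15% of these forms with NaIO4 against 0.661% and 0.504% without.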
